A study of Mus musculus with 45 samples.

Results

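Hepatic RNA-Seq counts of 5 mice given TCDD (2,3,7,8-tetrachlorodibenzo-p-dioxin) at 10 µg/kg were compared with those of 5 mice given vehicle, over all genes tested. These 10 livers, chosen by the dose given in their labels, are part of a series of 45 livers in which 8 doses of TCDD and the vehicle were examined with 5 mice each. Both groups were female C57BL/6 mice that received sesame oil, with TCDD at 10 µg/kg or without it, by oral gavage from postnatal day 28 for 28 days. The study's methods and a label of each mouse give a dose every 4 days, whereas the treatment label also carries the word daily and describes the mice as ovariectomized, which the methods do not mention. Both groups carry the same statements, which could not be checked in the counts. Each library was made from a liver sample of 1 mouse, with its cell types mixed. A change can therefore come from fewer cells of a type or from less RNA per cell, and these cannot be told apart.

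Cytochromes P450 of the Cyp1 family are the classic targets of the aryl hydrocarbon receptor (AhR), a regulator of transcription for which TCDD is a potent ligand. Their promoters hold dioxin response elements (DREs), short sites with the core GCGTG, which the receptor reads as a dimer with Arnt. In liver the receptor is known for inducing enzymes of xenobiotic metabolism, and sustained activation in rodents is known to lead to fat accumulation, wasting and inflammation.

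Between 14619385 and 20624724 reads were counted on genes in the vehicle mice and between 15007410 and 29226126 in the 10 µg/kg mice. Expression levels are given as CPM, the reads of a gene relative to a fixed total per library, after scaling by the trimmed mean of M-values (TMM). The hepatocyte markers fit the labelled tissue, with a summed level of 123227 to 159870.0 CPM in vehicle mice and 118148 to 143453 CPM in treated mice for the 10 markers. Of these 10 markers 9 had a negative log2 fold change (median -0.32), 5 of them at an adjusted p under 0.05 and Apoa1 by 2-fold. Albumin (Alb) had 90969 to 122700.0 CPM in vehicle mice and 95953 to 117926 CPM at 10 µg/kg, which did not pass the test. Nothing in the labels says whether mice shared a litter or cage. The p-values rest on the spread between mice within dose groups, estimated over all 45 livers of the series.

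A gene was called a differentially expressed gene (DEG) where its level differed 2-fold or more with an adjusted p under 0.05 by edgeR's quasi-likelihood test with Benjamini-Hochberg adjustment over the 17464 genes tested. At 10 µg/kg, 666 genes were increased, 3.81% of those tested, and 303 were decreased, 1.73%, together 969 genes or 5.55%. Without the fold change criterion, 1479 genes were higher (8.47%) and 1304 lower (7.47%). In 1415 genes every treated mouse was above every vehicle mouse (8.1%), and in 1069 genes every treated mouse was below (6.12%). A mean under 10 reads in the vehicle mice was found for 49.1% of the increased DEGs and 17.8% of the decreased DEGs. It was found for 24.7% of the genes called neither way. A gene needs reads in the vehicle mice to be called decreased, so a difference of this direction follows in part from the call itself. Of the increased DEGs 29 had no read in any vehicle mouse. The median log2 fold change over all genes tested was 0.02. Scaling by library size alone, without TMM, moved that median to 0.14 and gave 899 increased and 228 decreased DEGs, so that 79.8% of the DEGs were increased in place of 68.7%.

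**Figure D1:**
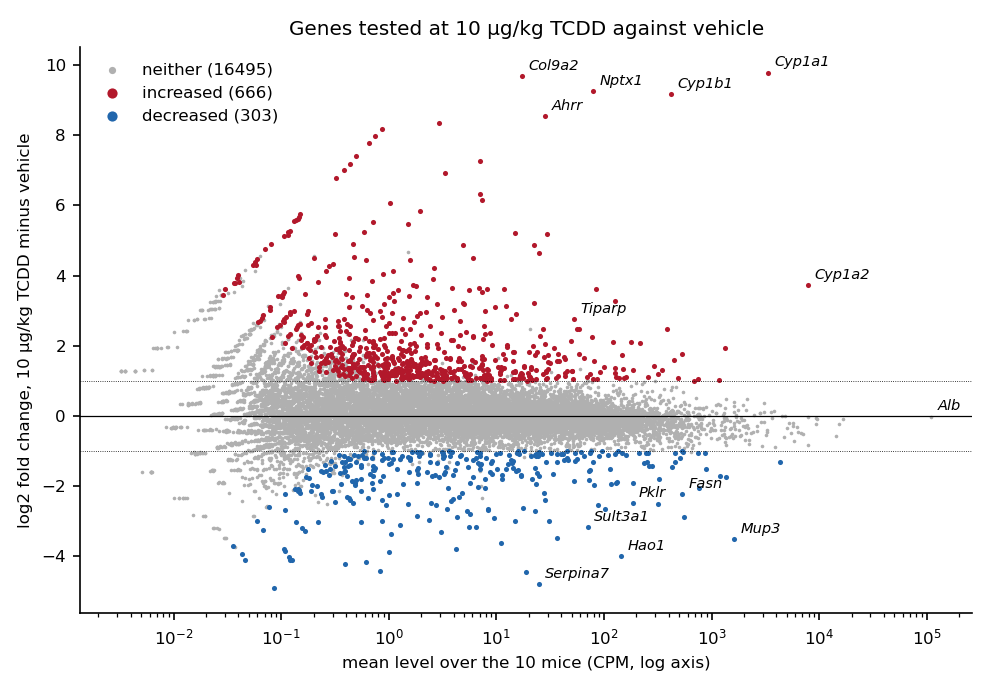
Log2 fold change at 10 µg/kg TCDD against the mean level over the 10 mice (CPM, log axis), 1 point per gene tested, with the 666 increased DEGs in red and the 303 decreased DEGs in blue. The dotted lines mark a 2-fold change; Cyp1a1 lies highest, with a log2 fold change of 9.78, and the named decreased gene Serpina7 is at -4.80.

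The increased DEGs took up a larger part of the libraries. They held 0.72% to 0.78% of all reads on genes in the vehicle mice and 4.05% to 4.66% in the treated mice, with no overlap. Cyp1a1, Cyp1a2 and Cyp1b1 alone went from 0.09% to 0.12% of the reads to 2.08% to 2.58%. The decreased DEGs went from 3.12% to 3.36% of the reads to 0.97% to 1.29%. These shares describe genes chosen by the same comparison and carry no test.

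The AhR battery, a list of 16 known AhR target genes, held 11 increased DEGs and 1 decreased DEG, with a median log2 fold change of 1.43 against 0.02 over all genes. Cyp1a1 (ENSMUSG00000032315, chr9:57687928-57703824), the monooxygenase most closely tied to AhR activation, had 2.9, 1.34, 5.49, 16.6 and 11.1 CPM in the 5 vehicle mice. In the 5 treated mice it had 6282, 7989.7, 6969, 5688 and 6342 CPM, 880.3-fold higher, with a log2 fold change of 9.78 ± 0.83 (SE, adjusted p = 3.08e-12). The vehicle mice differed among themselves by more than 10-fold at these low levels, but all lay far below every treated mouse. Cyp1b1 (ENSMUSG00000024087, chr17:79701537-79715061), a related P450 that is scarce in untreated liver, went from 0.849, 0.636, 0.616, 2.48 and 2.48 CPM to 685, 988, 892, 713 and 925 CPM, with a log2 fold change of 9.18 ± 0.69 (SE, adjusted p = 9.53e-14). Cyp1a2 (ENSMUSG00000032310, chr9:57676937-57683703), which is already abundant in hepatocytes, went from 1040.3, 942, 1094, 1220.5 and 1228 CPM to 13499.9, 15845, 16673, 13076 and 13997 CPM, with a log2 fold change of 3.73 ± 0.15 (SE, adjusted p = 7.9e-23). Per kilobase of exon, the vehicle mice held 2.69 RPKM of Cyp1a1 and 549 RPKM of Cyp1a2, while the treated mice held 2388 and 7262 RPKM. The level of Cyp1a2 per length thus exceeded that of Cyp1a1 in both groups, with the smaller fold change.

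Genes that feed back on the receptor were among the increased DEGs. Ahrr (ENSMUSG00000021575, chr13:74211118-74292331), the AhR repressor, had 0.142, 0.127, 0.0616, 0.0619 and 0.303 CPM in vehicle mice and 79.5, 52.2, 44.2, 65.5 and 43 CPM in treated mice, with a log2 fold change of 8.55 ± 0.49 (SE, adjusted p = 3.09e-17). Tiparp (ENSMUSG00000034640, chr3:65528410-65555518), an ADP-ribosyltransferase that dampens AhR signalling, went from 13.7, 16.5, 15.5, 11.7 and 11 CPM to 88.7, 108, 77.2, 71 and 118 CPM, with a log2 fold change of 2.76 ± 0.18 (SE, adjusted p = 9.15e-16); its exons overlap a gene on the other strand, 4931440P22Rik. Neither gene had overlapping groups. The other 13 of the 15 tested genes of the AhR complex list did not pass, and the list's median log2 fold change was 0.13. Ahr itself had a log2 fold change of 0.18 ± 0.21 (SE, adjusted p = 0.611) and Arnt one of -0.10 ± 0.14 (SE, adjusted p = 0.704).

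The DRE core was looked for in the 250 bases before the start site of these genes, in RefSeq promoter sequences on GRCm38.p6, to show the letters that the receptor is known to read. In the lines that follow, each stretch is written 5′ to 3′ on the strand of its gene, with the core in capitals (GCGTG, or CACGC where the core lies on the other strand).
Cyp1a1, chr9:57697544-57697578, plus strand, core from base -54: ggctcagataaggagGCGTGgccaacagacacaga
Cyp1b1, chr17:79715118-79715152, minus strand, core from base -76: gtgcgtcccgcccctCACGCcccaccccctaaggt
Ahrr, chr13:74292394-74292428, minus strand, core from base -82: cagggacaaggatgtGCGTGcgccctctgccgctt
Tiparp, chr3:65528262-65528296, plus strand, core from base -170: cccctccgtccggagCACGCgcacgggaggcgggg
Ugdh, chr5:65435917-65435951, minus strand, core from base -94: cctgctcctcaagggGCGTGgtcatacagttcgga

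The Ahrr window held further cores at -107 and -27, and that of Ugdh at -180 and -172. The RefSeq start used for Cyp1a1 differs from the start of the gene bounds given above, so its window lies inside those bounds. Cyp1a2, Nqo1, Ugt1a6a and Gsta1 had no such letters in their windows, and Aldh3a1 is named only. Either orientation was present in 38.5% of the 481 increased DEGs with a promoter sequence, in 29.6% of the 199 decreased DEGs and in 46.5% of the 11932 genes tested with a sequence. It was present in 28.2% of all 32851 promoter sequences. Among the increased DEGs of at least 8-fold the share was 37.7% of 77. The core contains the dinucleotide CG, and the median number of CG dinucleotides in the window was 9 for increased DEGs, 6 for decreased DEGs and 14 for all genes tested. These shares are a description without a test, and a match is not a binding site.

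The remaining increased members of the battery are enzymes and changed less. Nqo1, a quinone reductase, rose from 17 ± 3.74 to 41.3 ± 5.58 CPM (mean ± SD, n = 5 mice per group here and in what follows), with a log2 fold change of 1.28 ± 0.18 (SE, adjusted p = 1.13e-06). Ugdh, which makes the glucuronic acid donor, rose from 195 ± 25 to 448 ± 67.9 CPM and Ugt1a6a, a glucuronosyltransferase, from 98 ± 5.95 to 207 ± 12.6 CPM, by log2 fold changes of 1.20 ± 0.15 (SE, adjusted p = 6.97e-08) and 1.08 ± 0.11 (SE, adjusted p = 2.03e-10). The decreased member was Fmo2, a flavin monooxygenase, which went from 75.8, 112, 154, 104 and 109 CPM to 31.8, 44.4, 33.5, 27.3 and 55 CPM, with a log2 fold change of -1.53 ± 0.28 (SE, adjusted p = 1.10e-04). No treated mouse overlapped the vehicle mice for it. Aldh3a1, an aldehyde dehydrogenase, had no read in the vehicle mice and 32 reads over the treated mice, at least 7.27-fold higher against the floor of 3 reads over the vehicle group. Gsta1, a glutathione S-transferase, had 2.83, 0.572, 0.185, 0.309 and 1.72 CPM in vehicle mice and 3.83, 3.06, 2.47, 3.7 and 3.47 CPM in treated mice, so that the groups overlapped, and its call at 1.57 ± 0.54 (SE, adjusted p = 0.0389) was lost when any of 6 of the 10 mice was left out, with log2 fold changes from 1.30 to 2.19. Xdh, xanthine dehydrogenase, had 177 to 228 CPM in vehicle mice and 376 to 422 CPM in treated mice, just short of the 2-fold criterion, with a log2 fold change of 1.00 ± 0.10 (SE, adjusted p = 1.04e-09). It met that criterion without TMM and when any 1 of 4 mice was left out. Cyp2a5, Cyp2s1 and Ugt1a6b had adjusted p-values of 0.925, 0.599 and 0.0808.

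**Figure D2:**
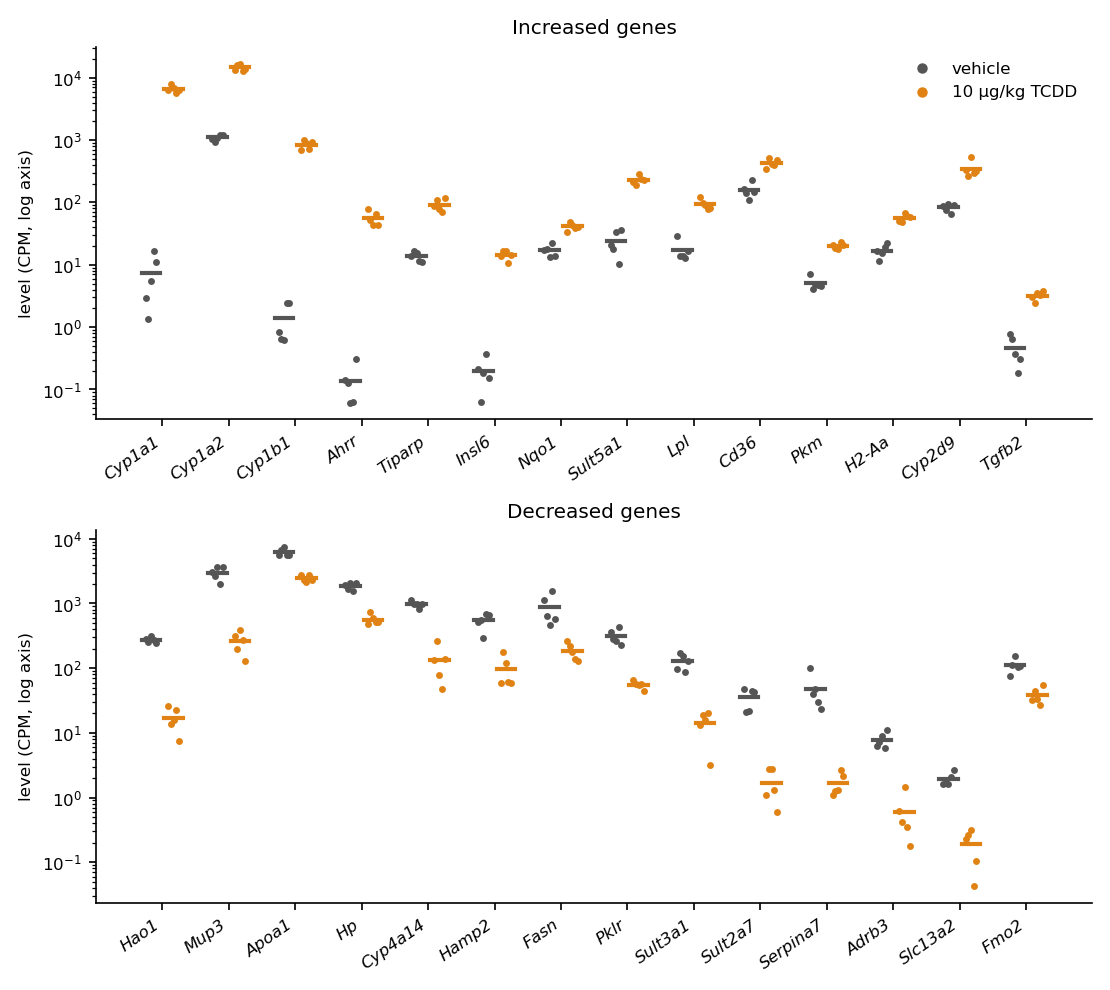
Level in each of the 5 vehicle mice (grey) and the 5 mice at 10 µg/kg TCDD (orange) for 14 increased and 14 decreased genes, in CPM on a log axis, with the group mean as a line. The groups do not overlap for any gene drawn; Sult3a1 has 1 treated mouse at 3.16 CPM, apart from the other treated mice.

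Conjugation enzymes split by family. Of 21 genes of glucuronidation 5 were increased and 2 decreased (median log2 fold change 0.20). Ugt1a7c, scarce in vehicle liver, had 0.0708, 0.127, 0.308, 0.248 and 0.152 CPM in vehicle mice and 1.82, 1.69, 1.9, 1.78 and 4.07 CPM in treated mice, with a log2 fold change of 3.59 ± 0.40 (SE, adjusted p = 2.86e-09), and 1 treated mouse stood above the others. Ugt1a9 rose from 84.5 ± 15.5 to 214 ± 36.5 CPM, with a log2 fold change of 1.34 ± 0.20 (SE, adjusted p = 1.99e-06), whereas Ugt1a5 fell from 109 ± 48.1 to 36.4 ± 6.02 CPM, with a log2 fold change of -1.58 ± 0.29 (SE, adjusted p = 9.07e-05). The Ugt1a genes share exons, and reads on these were left out as ambiguous, so each value rests on the part that belongs to 1 gene. Of the genes of this cluster on chromosome 1, Ugt1a7c, Ugt1a9 and Ugt1a6a rose and Ugt1a5 and Ugt1a2 fell. The call of Ugt1a2, at a log2 fold change of -1.10, was lost without TMM and without vehicle replicate 2.

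Among 23 glutathione S-transferases 4 were increased DEGs, while 5 were higher and 5 lower at an adjusted p under 0.05 at any fold change, with a median of -0.13. The median summed level of the family was 8995 CPM in vehicle mice and 6873 CPM in treated mice. Gstp1, which is normally low in female mouse liver, rose from 54.9 ± 8.13 to 145 ± 11.4 CPM, with a log2 fold change of 1.4 ± 0.16 (SE, adjusted p = 8.26e-09), and the near-identical Gstp2 rose from 0.288 ± 0.266 to 1.73 ± 0.896 CPM, with a log2 fold change of 2.66 ± 0.51 (SE, adjusted p = 1.51e-04), which was 3.26 without vehicle replicate 1. Reads that fit both copies were left out of the counts, so the division between these copies is uncertain. Gstm3 rose from 80.9 ± 32.8 to 175 ± 36.3 CPM, with a log2 fold change of 1.11 ± 0.27 (SE, adjusted p = 0.00254) and overlap between the groups, and its log2 fold change was 0.98 without vehicle replicate 3. The count of increased members was 2 of 23 without vehicle replicate 3.

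Sulfotransferases, which attach sulfate to steroids, bile acids and phenols, held 6 decreased DEGs and 1 increased DEG among 18 tested (median -0.47). Sult2a7 went from 47.8, 21.2, 21.8, 44.1 and 43.3 CPM to 1.1, 2.79, 2.73, 1.3 and 0.597 CPM, with a log2 fold change of -4.46 ± 0.58 (SE, adjusted p = 1.5e-07). Sult3a1 went from 97.4, 171, 155, 87.3 and 129 CPM to 13, 18.8, 15.8, 20.0 and 3.16 CPM, with a log2 fold change of -3.18 ± 0.46 (SE, adjusted p = 1.4e-06), and Sult2a8 fell from 1240.2 ± 206 to 297 ± 95 CPM, with a log2 fold change of -2.06 ± 0.25 (SE, adjusted p = 2.38e-08). In all 3 genes the highest treated mouse was below the lowest vehicle mouse. Sult1a1 and Sult1c2 also fell, by 1.06 and 1.34 on the log2 scale, and the call of Sult1a1 was lost without TMM and without treated replicate 1. Without TMM 5 members were decreased, and between 5 and 7 when 1 mouse was left out. The opposite change came from Sult5a1, a sulfotransferase whose substrates are little known, with 20.5, 18.1, 33.7, 10.4 and 36.4 CPM in vehicle mice and 209, 189, 282, 238 and 229.9 CPM in treated mice and a log2 fold change of 3.26 ± 0.30 (SE, adjusted p = 4.81e-11). The Sult2a genes are close copies within their own family, as are the Sult3a genes within theirs, and their counts hold only reads that fit 1 gene.

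Of 26 genes of the Nrf2 antioxidant response Gpx2, Nqo1 and Akr1b8 were called, all increased (median 0.12), Akr1b8 at a log2 fold change of 1.12 that was 0.98 without vehicle replicate 2. Gpx2, a glutathione peroxidase of the gut lining, had 2 reads over the vehicle mice and 0.811, 1, 2.03, 0.652 and 2.46 CPM in treated mice, a ratio of 56.4 with an interval of 15.4 to 469.9, and an adjusted p of 1e-07. Hmox1, heme oxygenase, had 15.8, 10.0, 12.2, 11.4 and 14.2 CPM and then 19.8, 19, 17.1, 22 and 18.1 CPM without overlap, but its log2 fold change of 0.59 ± 0.29 (SE, adjusted p = 0.164) did not pass. Gclc, the rate-limiting enzyme of glutathione synthesis, had one of 0.47 ± 0.22 (SE, adjusted p = 0.15).

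Most of the largest increases were in genes that liver hardly expresses. Nptx1 (ENSMUSG00000025582, chr11:119538719-119547753), a secreted neuronal pentraxin, had 0.0708, 0, 0.123, 0.743 and 0.303 CPM in vehicle mice and 204, 137, 180.4, 156 and 116 CPM in treated mice, with a log2 fold change of 9.25 ± 0.55 (SE, adjusted p = 1.06e-16). Col9a2 (ENSMUSG00000028626, chr4:121039385-121055322), a cartilage collagen chain, had 3 reads over the vehicle mice and 23.1, 27.1, 55.6, 13.6 and 55 CPM in treated mice. The ratio of the groups was 930.5 with an interval of 318 to 4514, with an adjusted p of 1.53e-14. Such intervals are exact binomial ones at 95% and cover counting error only. Ovol1, a transcription factor of epithelial differentiation, had 1 read over the vehicle mice and 4.8, 6.96, 6.34, 4.74 and 6.53 CPM in treated mice, a ratio of 473 with an interval of 84.6 to 18713, with an adjusted p of 1.21e-15. For all 3 genes every treated mouse lay above every vehicle mouse, which the rule for naming the largest changes required. Insl6, a relaxin-family peptide known from testis, went from 0.212, 0.0636, 0.185, 0.371 and 0.152 CPM to 14, 16.5, 16.5, 10.8 and 14.1 CPM, with a log2 fold change of 6.16 ± 0.31 (SE, adjusted p = 6.61e-19). Pkp1, a desmosomal plaque protein of skin, went from 0.0708, 0.127, 0, 0.309 and 0.303 CPM to 10.5, 12.1, 13.4, 13.9 and 20.1 CPM, with a log2 fold change of 6.32 ± 0.42 (SE, adjusted p = 1.47e-15). Fabp12, a fatty acid binding protein, and Pnliprp1, a pancreatic lipase-related protein, had log2 fold changes of 7.28 ± 0.69 (SE, adjusted p = 4.68e-11) and 6.93 ± 0.66 (SE, adjusted p = 4.79e-11). Without vehicle replicate 4 the log2 fold change was 10.13 for Nptx1 and 7.52 for Pnliprp1. These 7 genes had between 1 and 21 reads in all over the vehicle mice and at least 56 reads in every treated mouse.

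Another 5 genes of the 15 largest increases had no read in any vehicle mouse, and their folds are lower bounds against 3 reads over the vehicle group. Hmx1, a homeobox factor, had 1.4, 0.369, 2.79, 2.87 and 1.19 CPM in treated mice and was at least 47.1-fold higher. Cacng1, a calcium channel subunit of skeletal muscle, had 2.04, 0.738, 1.01, 1.96 and 1.61 CPM and was at least 40.3-fold higher. Krt25, a hair follicle keratin, had 0.746, 0.843, 0.887, 0.826 and 1.02 CPM and was at least 23.6-fold higher. The noncoding C130080G10Rik and Dtnbos were at least 35.5-fold and 27.2-fold higher. Hmx1 and Ovol1 have exons that overlap genes on the other strand, which could not be told apart where the counting ignored strand.

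The largest decreases were in liver-expressed genes. Serpina7 (ENSMUSG00000031271, chrX:139079257-139085236), thyroxine-binding globulin, which carries thyroid hormone in blood, had 101, 39.9, 47.9, 29.6 and 23 CPM in vehicle mice and 1.1, 1.26, 1.33, 2.7 and 2.14 CPM in treated mice, 27.9-fold lower, with a log2 fold change of -4.80 ± 0.43 (SE, adjusted p = 1.28e-11). Hao1 (ENSMUSG00000027261, chr2:134497361-134554368), the peroxisomal glycolate oxidase, went from 283, 254, 316, 271 and 242 CPM to 26.2, 13.7, 15.6, 22.4 and 7.54 CPM, 16-fold lower, with a log2 fold change of -4.0 ± 0.35 (SE, adjusted p = 7.54e-12). Mup3 (ENSMUSG00000066154, chr4:62083476-62087342), a major urinary protein that carries pheromones, went from 3019, 2686, 3692, 2004 and 3626 CPM to 319.8, 198, 388, 277 and 129.8 CPM, 11.5-fold lower, with a log2 fold change of -3.52 ± 0.31 (SE, adjusted p = 1.19e-11). None of these groups overlapped, which the rule for naming the largest changes required. The vehicle mice ranged more than 4-fold for Serpina7 but less than 2-fold for Hao1 and Mup3.

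Receptors were among the decreased genes as well. Adrb3, the beta-3 adrenergic receptor, went from 6.23, 7.19, 8.87, 5.88 and 11 CPM to 0.617, 0.422, 1.46, 0.348 and 0.175 CPM, with a log2 fold change of -3.79 ± 0.31 (SE, adjusted p = 1.52e-12). Chrna4, a nicotinic acetylcholine receptor subunit, went from 42.5, 10.7, 6.47, 31.5 and 11.1 CPM to 4.32, 0.527, 1.77, 1 and 0.421 CPM, with a log2 fold change of -3.62 ± 0.66 (SE, adjusted p = 8.34e-05). Adam11, a membrane protein of the disintegrin family, went from 6.37, 5.6, 3.57, 5.07 and 7.18 CPM to 0.389, 0.685, 0.951, 0.348 and 0.526 CPM, with a log2 fold change of -3.31 ± 0.35 (SE, adjusted p = 9.37e-10). Without treated replicate 1 the log2 fold change of Chrna4 was -4.54, and over the other fits that left out a mouse it was -3.17 at its smallest. The vehicle mice spread widely for it, and the highest treated mouse came close to the lowest vehicle mouse. H2-Q1, a nonclassical major histocompatibility complex (MHC) class I gene, fell from 11.6 ± 2.58 to 1.33 ± 0.541 CPM, with a log2 fold change of -3.16 ± 0.29 (SE, adjusted p = 2.24e-11), and has near copies in the same locus. The 15 largest decreases without overlap also held Sult3a2 at a log2 fold change of -3.90, and the noncoding Gm13021 at -4.17 (-4.88 without treated replicate 5) and Gm12265 at -3.11, and a gene without a symbol.

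Carriers of the hepatocyte membrane held 2 decreased and 2 increased DEGs among 20, with 8 lower and 2 higher at an adjusted p under 0.05 (median -0.29). Slc13a2, a dicarboxylate carrier, fell from 1.91 ± 0.44 to 0.191 ± 0.113 CPM, with a log2 fold change of -3.36 ± 0.57 (SE, adjusted p = 2.05e-05), while the related Slc13a3 rose from 14 ± 2.37 to 46.4 ± 7.91 CPM, with a log2 fold change of 1.72 ± 0.23 (SE, adjusted p = 4.06e-07). Slco1a1, an organic anion transporter, was variable in both groups, with 20.2, 70.8, 188, 7.43 and 49.2 CPM in vehicle mice and 17.8, 0.738, 5.13, 5.31 and 0.561 CPM in treated mice. Its groups overlapped in 1 treated mouse, and the log2 fold change was -3.47 ± 0.86 (SE, adjusted p = 0.00354). It was -4.57 without treated replicate 1 and -2.61 without vehicle replicate 3. Slc22a7, another organic anion transporter, rose from 17 ± 2.15 to 40.5 ± 15.7 CPM, with a log2 fold change of 1.26 ± 0.30 (SE, adjusted p = 0.00242). Among 21 ABC exporters and related genes Abcg1, a sterol exporter, rose, with a log2 fold change of 1.48 ± 0.24 (SE, adjusted p = 1.36e-05), and Slc51b, a bile acid export subunit, fell at low reads, with a log2 fold change of -1.84 ± 0.55 (SE, adjusted p = 0.0164), a call lost without treated replicate 4 or vehicle replicate 1.

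Fat synthesis was the functional list with the lowest median. Of 24 genes of de novo lipogenesis 8 were decreased DEGs and 16 were lower at an adjusted p under 0.05 at any fold change, against 1 increased, with a median log2 fold change of -0.85. Fasn, fatty acid synthase, had 1143, 644, 466, 1574 and 569 CPM in vehicle mice and 266, 223, 176, 136 and 129 CPM in treated mice, with a log2 fold change of -2.24 ± 0.35 (SE, adjusted p = 7.05e-06). Elovl6, which elongates palmitate, had 289, 139, 123, 333 and 166 CPM and then 50.01, 72.6, 47.2, 48.1 and 63.6 CPM, with a log2 fold change of -1.90 ± 0.37 (SE, adjusted p = 1.90e-04). The vehicle mice fell into lower and higher values for both genes, with vehicle mice 1 and 4 highest, and every treated mouse lay below them all. Pnpla3, a lipid droplet protein, had 16.6, 2.99, 5.12, 20.5 and 5.15 CPM in vehicle mice and 2.17, 0.949, 0.887, 0.565 and 0.772 CPM in treated mice, with a log2 fold change of -3.18 ± 0.64 (SE, adjusted p = 3.23e-04), again highest in vehicle mice 1 and 4. Acly, which supplies cytosolic acetyl-CoA, Acss2, Acaca and Fads1 also fell, by 1.79, 1.43, 1.08 and 1.02 on the log2 scale. Without TMM, Acaca and Fads1 lost the call and 6 members were decreased. When 1 mouse was left out between 6 and 10 members were decreased, and Acaca lost the call in 1 of the 10 fits and Fads1 in 3. Srebf1, the sterol-regulatory factor of this pathway, was lower without reaching 2-fold, with a log2 fold change of -0.91 ± 0.22 (SE, adjusted p = 0.00299). Scd1, the abundant stearoyl-CoA desaturase, had 14406, 11909, 3757, 13930.5 and 6294 CPM and then 6499, 8778, 6361, 3166 and 3448 CPM and did not pass, with a log2 fold change of -0.83 ± 0.34 (SE, adjusted p = 0.0957). Elovl5, an elongase of polyunsaturated fatty acids, was the increased member, from 490.1 ± 139 to 1019 ± 117 CPM, with a log2 fold change of 1.06 ± 0.21 (SE, adjusted p = 2.97e-04). That call was lost without treated replicate 1 or vehicle replicate 3, at log2 fold changes of 0.99 and 0.96.

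Cholesterol synthesis moved the same way and less far. All 25 genes tested had a negative log2 fold change (median -0.64), 18 of them at an adjusted p under 0.05 and 3 of them 2-fold, and in 6 genes the groups did not overlap. Fdps, farnesyl diphosphate synthase, fell from 77 ± 19.5 to 31.8 ± 14.6 CPM, with a log2 fold change of -1.28 ± 0.24 (SE, adjusted p = 1.20e-04), and Sc5d, a sterol desaturase, from 999 ± 196 to 483 ± 134 CPM, with a log2 fold change of -1.05 ± 0.21 (SE, adjusted p = 3.17e-04). Hmgcs1, the cytosolic HMG-CoA synthase, had a log2 fold change of -1.20 ± 0.36 (SE, adjusted p = 0.0163) with overlapping groups, and its call was lost without treated replicate 5 or vehicle replicate 2. The call of Sc5d was lost without TMM and without treated replicate 5 or vehicle replicate 4. The number of 2-fold decreases depended on single mice: it was 7 without treated replicate 1, 5 without vehicle replicate 3 and 1 without treated replicate 5. Scaling without TMM left 2.

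Lpl and Cd36, which serve the uptake of fat, rose. Lpl, lipoprotein lipase, which is low in healthy adult liver, had 28.7, 13.9, 13.7, 12.9 and 16.4 CPM in vehicle mice and 124, 98, 90.7, 78.7 and 81.5 CPM in treated mice, with a log2 fold change of 2.47 ± 0.34 (SE, adjusted p = 5.5e-07). Cd36, a fatty acid translocase, had 162, 144, 109.8, 232 and 147 CPM and then 341, 512, 420.2, 395 and 476 CPM, with a log2 fold change of 1.43 ± 0.18 (SE, adjusted p = 7.7e-08). Both groups of mice were separate for both genes. They were the 2 DEGs among the 26 genes of fatty acid uptake and lipid droplets, whose median was 0.25. Fabp4, the adipocyte fatty acid binding protein, had a log2 fold change of 0.19 ± 0.17 (SE, adjusted p = 0.502). Among 22 apolipoprotein and VLDL genes Apoa1, the main protein of HDL, fell, from 5579, 6608, 7474, 5546 and 5687 CPM to 2790.2, 2309, 2149.6, 2796 and 2269 CPM, with a log2 fold change of -1.33 ± 0.23 (SE, adjusted p = 3.19e-05). Apoe, which marks lipoprotein remnants, was lower in every treated mouse than in any vehicle mouse, by less than 2-fold, with a log2 fold change of -0.58 ± 0.09 (SE, adjusted p = 2.41e-06), and 10 of the 22 genes were lower at an adjusted p under 0.05 (median -0.28).

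Fatty acid oxidation and ketogenesis held 1 DEG in each direction among 26 genes and 8 genes lower at an adjusted p under 0.05 (median -0.20). Acaa1b, a peroxisomal thiolase, fell from 624 ± 134 to 225 ± 39.4 CPM, with a log2 fold change of -1.47 ± 0.20 (SE, adjusted p = 2.94e-07). Cyp4a14, a fatty acid omega-hydroxylase and classic target of the receptor PPARα, had 1112, 968, 987, 822 and 992 CPM in vehicle mice and 135, 265, 79.1, 47.1 and 139 CPM in treated mice, with a log2 fold change of -2.87 ± 0.46 (SE, adjusted p = 9.44e-06). The treated mice differed by more than 5-fold among themselves, all below the vehicle mice. Fgf21, a fasting hormone made by liver, had 0.0708, 0.509, 0.37, 0.309 and 0.657 CPM and then 7.43, 2.21, 2.98, 4.52 and 3.47 CPM, with a log2 fold change of 3.38 ± 0.59 (SE, adjusted p = 3.53e-05). It was also the 1 DEG among 31 genes of the integrated and endoplasmic reticulum stress responses, whose median was -0.04, and Hspa5, the main chaperone of the endoplasmic reticulum, had a log2 fold change of 0.10 ± 0.22 (SE, adjusted p = 0.813).

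In carbohydrate metabolism the pyruvate kinases moved in opposite directions. Pklr, the liver enzyme, had 368, 287, 259, 431 and 228 CPM in vehicle mice and 64.6, 57.1, 54.8, 57.5 and 44.6 CPM in treated mice, with a log2 fold change of -2.50 ± 0.24 (SE, adjusted p = 9.94e-11), and shares exon positions with Hcn3 on the other strand. Pkm, the enzyme of muscle and proliferating cells, had 7.08, 4.07, 4.93, 4.7 and 4.5 CPM and then 20.7, 18.3, 18.2, 23.4 and 20.5 CPM, with a log2 fold change of 2.01 ± 0.22 (SE, adjusted p = 5.6e-09). Per kilobase of exon, Pklr had 97.2 RPKM and Pkm 1.01 RPKM in vehicle mice, and 17.2 and 4.04 RPKM at 10 µg/kg, so that the liver form was still the higher. Hk1, Hk2 and Hk3, the hexokinases that hepatocytes normally lack, rose from means of 1.92, 1.37 and 2.54 CPM to 4.64, 3.05 and 5.57 CPM. The call of Hk3 was lost without a filter on low counts and in 8 of the 10 fits that left out a mouse, with a lowest log2 fold change of 0.98. At any fold change 5 of the 26 glycolysis genes were higher and 4 lower at an adjusted p under 0.05. None of the 17 genes of gluconeogenesis and glucose output reached the criteria in edgeR, with 1 higher and 1 lower at an adjusted p under 0.05. Pck1, the rate-limiting enzyme of gluconeogenesis, had 1845, 3404, 3937, 2531 and 3333 CPM and then 985, 2423, 1855, 2124 and 3768 CPM, with a log2 fold change of -0.43 ± 0.38 (SE, adjusted p = 0.492). In glycogen metabolism Ppp1r3g, a glycogen-targeting subunit of protein phosphatase 1, was the 1 DEG among 18 genes, from 4.2 ± 2.06 to 0.541 ± 0.391 CPM, with a log2 fold change of -2.98 ± 0.89 (SE, adjusted p = 0.0164).

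Amino acid breakdown and the urea cycle showed many small decreases. Of 29 genes 12 were lower at an adjusted p under 0.05 and 1 higher, but Hao1 alone was 2-fold lower (median -0.39). Cps1, the first enzyme of the urea cycle, had 5485 to 10590.2 CPM in vehicle mice and 3533 to 5685 CPM in treated mice, with overlap and a log2 fold change of -0.72 ± 0.21 (SE, adjusted p = 0.0137). Uox, which degrades urate, had 3746 ± 439 CPM and then 2083 ± 209.7 CPM, with a log2 fold change of -0.85 ± 0.18 (SE, adjusted p = 7.51e-04). Of 13 genes of purine breakdown none was called in edgeR with TMM and all mice and 1 was increased without TMM, with 3 higher and 4 lower at an adjusted p under 0.05. In tryptophan and NAD metabolism Afmid, kynurenine formamidase, fell from 63.3 ± 11.9 to 27.3 ± 8.49 CPM, with a log2 fold change of -1.22 ± 0.23 (SE, adjusted p = 1.40e-04), and overlaps Tk1 on the other strand, while Aox3, an aldehyde oxidase, rose, with a log2 fold change of 1.09 ± 0.17 (SE, adjusted p = 7.23e-06), a call lost without vehicle replicate 5 (lowest log2 fold change 0.99). Csad, which makes the taurine precursor, fell from 37.2 ± 11.4 to 9.7 ± 2.83 CPM, with a log2 fold change of -1.94 ± 0.34 (SE, adjusted p = 3.96e-05), 1 of 2 decreased genes among 29 of choline, methionine and one-carbon metabolism, the other being Aldh1l2 at low reads, which was not called without treated replicate 1 or 5.

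**Figure D3:**
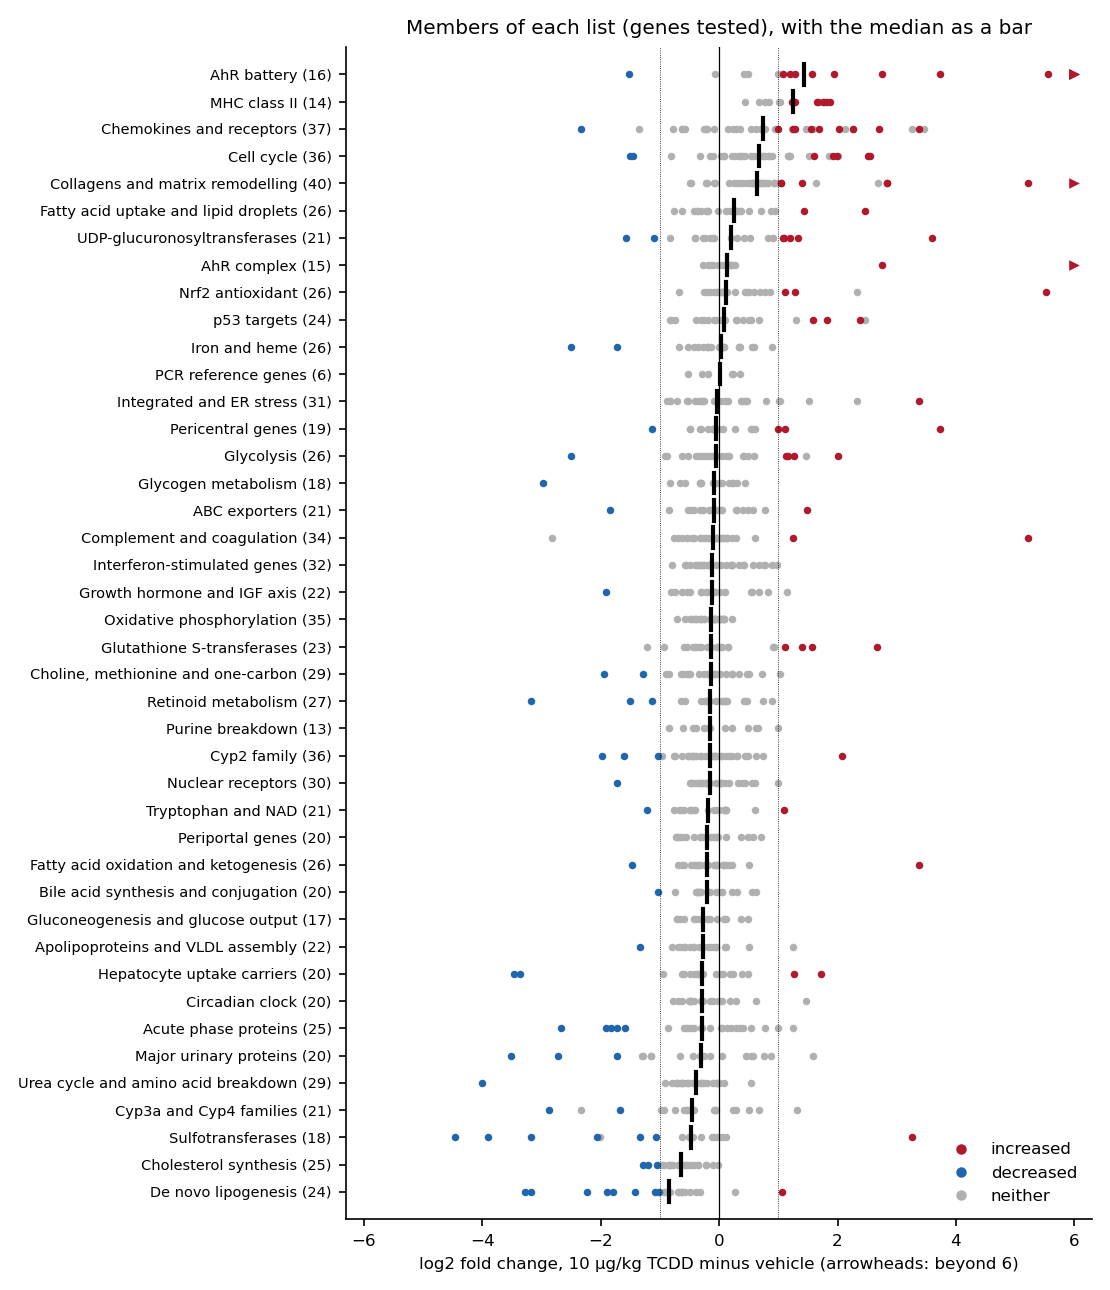
Log2 fold change at 10 µg/kg TCDD for every gene tested in each of 42 functional lists (rows, with the number tested), with increased DEGs in red, decreased DEGs in blue, the other genes in grey and the list's median as a black bar. The AhR battery has the highest median (1.43) and de novo lipogenesis the lowest (-0.85).

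Of 36 Cyp2 genes, another family of cytochromes P450, 3 were decreased DEGs and 1 was increased, and 8 were lower and 1 higher at an adjusted p under 0.05 (median -0.15). Cyp2a22, a close relative of the coumarin hydroxylase Cyp2a5, fell from 129 ± 15.6 to 32.6 ± 10.9 CPM, with a log2 fold change of -1.98 ± 0.33 (SE, adjusted p = 2.38e-05), whereas Cyp2a5 had 1388 ± 151 CPM and then 1325 ± 373 CPM. Cyp2d9, a testosterone hydroxylase expressed mainly in males, rose from 88.9, 76.4, 93.4, 65.2 and 92.1 CPM to 328, 265, 535, 299.6 and 316 CPM, with a log2 fold change of 2.07 ± 0.28 (SE, adjusted p = 4.58e-07). Of 21 Cyp3a and Cyp4 genes Cyp4a14 and Cyp3a59 fell by 2-fold or more, and 6 were lower and 1 higher at an adjusted p under 0.05 (median -0.46). Bile acid synthesis and conjugation held 1 decreased DEG among 20 genes, Cyp2c70, the muricholic acid enzyme, from 735 ± 67.1 to 358 ± 26.5 CPM, with a log2 fold change of -1.04 ± 0.19 (SE, adjusted p = 7.07e-05), a call lost without vehicle replicate 4 (log2 fold change -0.99) and without TMM (-0.91). Cyp7a1, the rate-limiting enzyme of bile acid synthesis, ranged from 204 to 744 CPM in vehicle mice and 105 to 683 CPM in treated mice, with a log2 fold change of -0.15 ± 0.68 (SE, adjusted p = 0.916), a difference that was not detectable over this spread. Genes of the pericentral zone held 3 increased DEGs, Cyp1a2, Gstm3 and Slc1a2, and 1 decreased, Lect2, among 19, and no periportal gene among 20 was called in edgeR, with 1 higher and 6 lower at an adjusted p under 0.05. Slc1a2, a glutamate transporter, had a log2 fold change of 1.00 ± 0.16 (SE, adjusted p = 1.51e-05) at the border of the criterion. Its call was lost with DESeq2's Wald test, with DESeq2 size factors, without a filter on low counts, when both groups alone were fitted and in 4 of the fits that left out a mouse, at log2 fold changes from 0.90 to 1.08.

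Genes of the acute phase list, not all of which encode secreted proteins, were mainly lower where they changed, as were several genes of secreted liver proteins. Among 25 acute phase genes 5 were decreased and none increased by edgeR at 2-fold, except 1 when both groups alone were fitted (10 lower and 0 higher at an adjusted p under 0.05), and 11 had a positive log2 fold change. Hp, haptoglobin, had 1911, 1683, 2070.1, 1541 and 2075 CPM in vehicle mice and 478, 728, 587, 512 and 517 CPM in treated mice, with a log2 fold change of -1.72 ± 0.26 (SE, adjusted p = 3.34e-06). Apcs, serum amyloid P, had 126, 109, 129, 111 and 87.7 CPM and then 42.5, 23.6, 33.1, 33.9 and 25.7 CPM, with a log2 fold change of -1.82 ± 0.25 (SE, adjusted p = 4.22e-07). Mt1 and Mt2, the metallothioneins, fell from 294 ± 165 to 77.8 ± 49.3 CPM and from 176 ± 130.1 to 27.7 ± 21.5 CPM with large spread and overlapping groups, and the call of Mt1 was lost without vehicle replicate 2, at log2 fold changes of -2.31 to -1.59 over the fits. Hamp2, a hepcidin copy, had 512, 551, 296, 699 and 672 CPM and then 58.7, 181, 121, 61.2 and 59.3 CPM, with a log2 fold change of -2.51 ± 0.45 (SE, adjusted p = 5.96e-05). Hamp2 and Hp were the DEGs among 26 genes of iron and heme. Igfbp2, an insulin-like growth factor binding protein, fell from 205 ± 46.6 to 54.2 ± 23.6 CPM, with a log2 fold change of -1.92 ± 0.28 (SE, adjusted p = 1.92e-06), as the 1 DEG among 22 genes of the growth hormone axis, where Igf1 had a log2 fold change of -0.20 ± 0.16 (SE, adjusted p = 0.42). Of 20 major urinary protein genes Mup3, Mup11 and Mup9 fell, and most Mup genes are near-identical copies whose shared reads were left out.

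Complement and coagulation held 2 increased DEGs among 34 genes, beside 3.81% of all genes tested. At any fold change 4 were higher and 9 lower at an adjusted p under 0.05 (median -0.1). Of the 2 DEGs C6, a terminal complement component, rose from 8.78 ± 2.59 to 20.9 ± 3.98 CPM, with a log2 fold change of 1.25 ± 0.34 (SE, adjusted p = 0.00948). In retinoid metabolism 3 of 27 genes fell, Pnpla3, Rdh9 and Rdh11. Rdh11, a retinol dehydrogenase that is also sterol-regulated, fell from 124 ± 32.3 to 56 ± 18.3 CPM, with a log2 fold change of -1.14 ± 0.25 (SE, adjusted p = 8.71e-04). Of 30 nuclear receptors Hnf4g alone was called, from 1.09 ± 0.31 to 0.341 ± 0.159 CPM, with a log2 fold change of -1.72 ± 0.40 (SE, adjusted p = 0.00157), whereas Hnf4a, the main hepatocyte factor, had a log2 fold change of 0.32 ± 0.14 (SE, adjusted p = 0.104). No clock gene among 20 was called in edgeR when all doses were fitted and 1 when both groups alone were, with 0 higher and 1 lower at an adjusted p under 0.05.

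MHC class II molecules show peptides to helper T cells. Of 14 genes tested of this presentation 8 were increased DEGs and all 14 had a positive log2 fold change, with a median of 1.25, and in 9 the groups did not overlap. H2-Aa, an antigen-binding chain, had 16.4, 11.6, 15.2, 18.9 and 22.2 CPM in vehicle mice and 49.6, 48, 68.3, 61.6 and 58.9 CPM in treated mice, with a log2 fold change of 1.76 ± 0.39 (SE, adjusted p = 0.00131). H2-Eb1 had 10.3, 7.95, 9.24, 11.8 and 13.2 CPM and then 29.3, 31.8, 44.6, 39.3 and 41.3 CPM, with a log2 fold change of 1.82 ± 0.42 (SE, adjusted p = 0.00157), and the invariant chain Cd74 rose from 26.6 ± 5.79 to 90.8 ± 11.4 CPM, with a log2 fold change of 1.77 ± 0.37 (SE, adjusted p = 6.43e-04). The groups were separate for each of these chains. Ciita, the master activator of this gene group, rose from 0.563 ± 0.181 to 2.08 ± 0.329 CPM, with a log2 fold change of 1.87 ± 0.43 (SE, adjusted p = 0.00175). Between 6 and 8 members were called when 1 mouse was left out. Of 32 interferon-stimulated genes none was called in edgeR with TMM and all mice, 2 were increased without TMM and up to 1 when a mouse was left out, with 3 higher and 3 lower at an adjusted p under 0.05, and Iigp1 had a log2 fold change of 0.03 ± 0.17 (SE, adjusted p = 0.939).

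Of 37 genes for chemokines and their receptors 9 were increased and 1 decreased (median 0.74), and 16 of the 37 had a mean under 10 reads. The decreased gene was Ccl21a, with a log2 fold change of -2.33. At any fold change 10 were higher and 5 lower at an adjusted p under 0.05. The summed level of the list was lower in treated mice, at 435 to 581 CPM against 632 to 794 CPM in vehicle mice. Ccr1, a receptor of monocytes and neutrophils, rose from 0.0718 ± 0.0469 to 0.829 ± 0.195 CPM, with a log2 fold change of 3.38 ± 0.48 (SE, adjusted p = 5.07e-07). Cxcr4 and Cxcl14 rose from 0.176 ± 0.0974 to 0.743 ± 0.243 CPM and from 0.501 ± 0.257 to 1.63 ± 0.519 CPM. Ccl22 and Ccr7, a chemokine and a receptor of mature dendritic cells, rose from 0.0846 ± 0.0524 to 0.584 ± 0.238 CPM and from 0.213 ± 0.153 to 0.651 ± 0.116 CPM. Ccl5, a T cell chemokine, rose from 0.524 ± 0.228 to 1.29 ± 0.221 CPM, but was not called without vehicle replicate 2 or 3, at log2 fold changes from 1.10 to 1.44 over the fits. The count of increased members was 6 to 9 when 1 mouse was left out, and 6 without vehicle replicate 2.

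Immune cell markers are given beside these values. The 14 Kupffer cell and macrophage markers had a summed level of 281 to 435 CPM in vehicle mice and 433 to 655 CPM in treated mice. All 14 had a positive log2 fold change (median 0.75), in 6 the groups did not overlap, and none was called in edgeR, with 0 at an adjusted p under 0.05. Of 10 markers of monocyte-derived and lipid-associated macrophages 3 were increased, Gpnmb, Itgax and Lgals3, while the summed level of the list was 62.5 to 94.6 CPM and then 67.2 to 76.7 CPM. In this list 8 members had a positive log2 fold change, Trem2 one of 0.11, whereas Spp1 and Cd9 had -0.21 and -0.52. Gpnmb, a glycoprotein of lipid-laden macrophages, had 0.142, 0.127, 0, 0.248 and 0.152 CPM in vehicle mice and 3.34, 1.26, 2.98, 3.26 and 4.07 CPM in treated mice, with a log2 fold change of 4.43 ± 0.65 (SE, adjusted p = 1.66e-06). The B and plasma cell list summed to 9.55 to 12.7 CPM in vehicle mice and 11.8 to 19.5 CPM in treated mice, with 2 called of 10, among them Ms4a1. In this list 7 members had a positive log2 fold change, while Igha, Jchain and Mzb1 had -0.78, -0.31 and -1.02 without a call. The T and NK cell list summed to 3.24 to 8.24 CPM and then 8.33 to 9.89 CPM, with Ncr1 called of 13. The 9 neutrophil markers, of which Mpo and Camp had no read in any vehicle mouse, summed to 0.954 to 2.12 CPM and then 3.74 to 8.62 CPM. S100a8, S100a9 and Csf3r were called among them. The calls of both B cell genes and of S100a8, S100a9 and Csf3r did not hold when single mice were left out: no neutrophil marker was called without treated replicate 3 or without vehicle replicate 2, 3 or 4. How much of the MHC class II and chemokine differences goes with these cells was not tested.

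**Figure D4:**
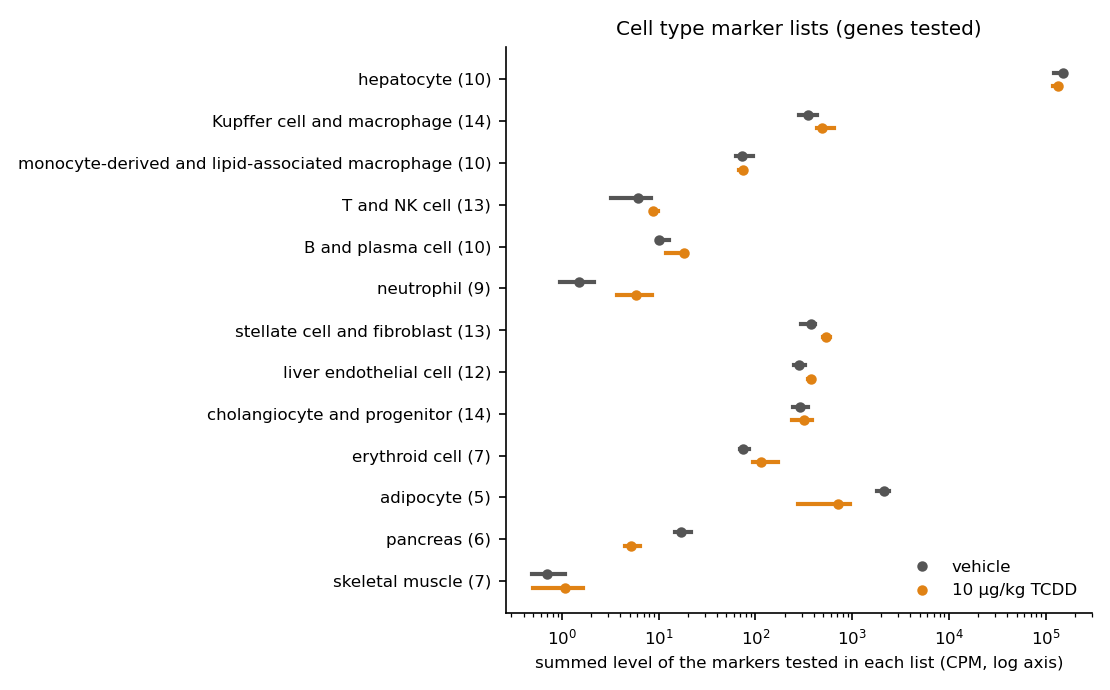
Summed level of the genes tested in each of 13 cell type marker lists, in CPM on a log axis, with the range over 5 mice as a line and the median as a point, for vehicle (grey) and 10 µg/kg TCDD (orange). The neutrophil ranges do not overlap, at 0.954 to 2.12 and 3.74 to 8.62 CPM, while the hepatocyte ranges do.

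Matrix genes held 7 increased DEGs among 40 tested, 15 at an adjusted p under 0.05 at any fold change, and a median log2 fold change of 0.64. Tgfb2, a growth factor of matrix production, had 0.778, 0.636, 0.37, 0.186 and 0.303 CPM in vehicle mice and 3.08, 2.48, 3.49, 3.26 and 3.75 CPM in treated mice, with a log2 fold change of 2.84 ± 0.34 (SE, adjusted p = 1.76e-08). Col1a1 and Col1a2, the chains of type I collagen, rose from 6.09 ± 1.59 to 15.9 ± 2.75 CPM and from 15.4 ± 3.1 to 31.7 ± 2.11 CPM, with log2 fold changes of 1.4 ± 0.33 (SE, adjusted p = 0.00198) and 1.04 ± 0.22 (SE, adjusted p = 6.60e-04). The call of Col1a2 was lost without vehicle replicate 4 or 5, with a lowest log2 fold change of 0.97. Col3a1, the type III chain, had 52.6, 34.1, 32.9, 28.5 and 26.7 CPM and then 53.6, 47, 53.4, 60.3 and 58.5 CPM, with a log2 fold change of 0.65 ± 0.23 (SE, adjusted p = 0.0517). Mmp13, a collagenase, rose from 0.214 ± 0.198 to 1.5 ± 0.576 CPM, with a log2 fold change of 2.83 ± 0.49 (SE, adjusted p = 3.25e-05). Without TMM 11 members were increased. The 13 stellate cell and fibroblast markers had a sum of 295 to 415 CPM in vehicle mice and 504 to 583 CPM in treated mice. Col1a1, Col1a2, Col3a1 and Dcn are in both this list and the matrix list, so the sum partly repeats the matrix genes. All 13 had a positive log2 fold change (median 0.36), and the DEGs were Col1a1, Col1a2 and Reln. Reln, a stellate cell glycoprotein, rose from 54.5 ± 5.4 to 129 ± 22.3 CPM, with a log2 fold change of 1.24 ± 0.15 (SE, adjusted p = 1.58e-08). The endothelial list, at 250.1 to 326 CPM and then 350.2 to 402 CPM, had 7 of 12 genes higher at an adjusted p under 0.05, none by 2-fold. Of 14 cholangiocyte and progenitor markers Prom1 and Krt23 were increased, the latter not without treated replicate 5 or vehicle replicate 4, and the summed levels overlapped, at 246 to 346 and 238 to 381 CPM. The part of stellate or endothelial cells in the matrix values was not tested.

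Cell cycle genes, which mark proliferating cells, were scarce in both groups. Of 36 genes 30 had a positive log2 fold change (median 0.67), and 5 were increased and 2 decreased DEGs. Top2a, the mitotic topoisomerase, rose from 0.722 ± 0.131 to 2.85 ± 0.849 CPM, with a log2 fold change of 1.99 ± 0.58 (SE, adjusted p = 0.0146). Mki67, the common proliferation marker, rose from 1.34 ± 0.374 to 4.05 ± 1.52 CPM, with a log2 fold change of 1.6 ± 0.58 (SE, adjusted p = 0.049), a call lost in 8 of the 10 fits that left out a mouse. Foxm1, Aurkb and Plk1, which drive mitosis, had means of 0.574, 0.442 and 0.515 CPM at 10 µg/kg, and Plk1 lost its call in 6 of the 10 fits. The decreased genes were Rrm2, the ribonucleotide reductase subunit, from 5.01 ± 1.08 to 1.81 ± 0.389 CPM, with a log2 fold change of -1.45 ± 0.39 (SE, adjusted p = 0.00767), and the repressor E2f8, which overlaps Gm2788 on the other strand. The call of E2f8 was lost without treated replicate 3 or 4 or vehicle replicate 3, at log2 fold changes of -1.67 to -1.29 over the fits. The number of increased members was 3 without any 1 of treated replicate 1 or 4 or vehicle replicate 3, 4 or 5. Cdkn1a, the p53-induced cell cycle inhibitor, had 0.708, 0.89, 1.97, 0.805 and 0.606 CPM and then 2.14, 13, 1.27, 2.74 and 6.81 CPM, with a log2 fold change of 2.38 ± 0.83 (SE, adjusted p = 0.0422), and overlapped between groups. Its call was lost when any of 6 of the 10 mice was left out, and its log2 fold change was 1.73 without treated replicate 2. It was 1 of 3 increased genes among 24 p53 targets, beside Gadd45b and Eda2r, a count that was 0 without vehicle replicate 2 and 1 or 2 without 7 of the other mice.

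Of 35 genes of oxidative phosphorylation none was called in edgeR, with 1 higher and 6 lower at an adjusted p under 0.05 (median -0.13). The 6 genes commonly used as PCR references had a median of 0.01 and none at an adjusted p under 0.05, with Actb at 0.35 ± 0.19 (SE, adjusted p = 0.225) and B2m at -0.29 ± 0.13 (SE, adjusted p = 0.12). Erythroid genes had a sum of 68.9 to 86 CPM in vehicle mice and 94.9 to 173 CPM in treated mice, with Alas2, the erythroid heme enzyme, at 14.1 ± 0.785 CPM and then 26 ± 5.63 CPM, higher by less than 2-fold except without TMM. Of the adipocyte markers Retn had no read in either group and Adipoq 5 reads in all, and the list's sum was 1784 to 2412 CPM in vehicle mice and 278 to 955 CPM in treated mice. That sum is nearly all Car3, a carbonic anhydrase that hepatocytes also express, which fell from 2086 ± 247 to 624 ± 263 CPM, with a log2 fold change of -1.74 ± 0.23 (SE, adjusted p = 1.82e-07). In the pancreas list Cpa1, Prss2 and Pnlip had no read in either group and Cela1, an elastase, fell from 17.5 ± 2.76 to 5.01 ± 0.7 CPM, with a log2 fold change of -1.81 ± 0.19 (SE, adjusted p = 2.18e-09). Skeletal muscle markers summed to at most 1.63 CPM.

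The 10 µg/kg mice were also compared with the 5 mice each of the neighbouring doses. Against 3 µg/kg, 59 genes were higher (0.338% of those tested) and 18 lower (0.103%), and against 10 µg/kg the 30 µg/kg mice had 57 genes higher (0.326%) and 13 lower (0.0744%). These comparisons share the 10 µg/kg mice with the one against vehicle. The count of 18 was 10 without treated replicate 5. The count of 13 was 26 without replicate 4 of the 30 µg/kg mice, 8 without replicate 1 or 2 of that group and 3 when the mice of both doses alone were fitted.

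Hao1 was lower at each step. It had a mean of 273 ± 28.8 CPM in vehicle mice, 96 ± 15.2 CPM at 3 µg/kg, 17.1 ± 7.35 CPM at 10 µg/kg and 2.3 ± 3.24 CPM at 30 µg/kg. The log2 differences were -2.49 ± 0.33 (SE, adjusted p = 4.12e-06) for 10 against 3 µg/kg and -2.90 ± 0.37 (SE, adjusted p = 3.68e-06) for 30 against 10 µg/kg. Sult3a1 had 65.2 ± 12.7, 14.1 ± 6.72 and 2.35 ± 3.42 CPM at the 3 doses, with log2 differences of -2.21 ± 0.44 (SE, adjusted p = 0.00335) and -2.57 ± 0.50 (SE, adjusted p = 0.00289). Sult2a8 had 671 ± 70.3, 297 ± 95 and 119 ± 72.9 CPM, with -1.18 ± 0.24 (SE, adjusted p = 0.00385) and -1.31 ± 0.24 (SE, adjusted p = 0.00143). Adrb3, H2-Q1 and Cyp2g1 were lower than at 3 µg/kg, by 1.39, 1.57 and 1.59 on the log2 scale, and Car3 was lower still at 30 µg/kg, by a log2 difference of -1.38 ± 0.22 (SE, adjusted p = 2.64e-04).

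Col9a2 had the largest log2 difference of the 59 genes that were higher at 10 than at 3 µg/kg. It had 1.17 ± 0.133 CPM at 3 µg/kg, 34.9 ± 19.3 CPM at 10 µg/kg and 115 ± 34.7 CPM at 30 µg/kg, with log2 differences of 4.89 ± 0.42 (SE, adjusted p = 1.76e-10) and 1.72 ± 0.34 (SE, adjusted p = 0.00331). Fgf21 had 0.656 ± 0.528, 4.12 ± 2.03 and 17.9 ± 11.7 CPM, with 2.59 ± 0.51 (SE, adjusted p = 0.00259) and 2.10 ± 0.44 (SE, adjusted p = 0.00849). Tgfb2 had 0.97 ± 0.301, 3.21 ± 0.482 and 6.95 ± 2.67 CPM, with 1.74 ± 0.29 (SE, adjusted p = 2.58e-04) and 1.11 ± 0.26 (SE, adjusted p = 0.0263). These 3 genes were thus called at both steps, as was Ugt1a7c. Ecel1, an endothelin-converting enzyme relative named after its values were seen, had 0.0358 ± 0.0346, 0.926 ± 0.571 and 14.6 ± 5.48 CPM, with 4.53 ± 0.71 (SE, adjusted p = 1.51e-04) and 3.90 ± 0.40 (SE, adjusted p = 5.91e-07). Gpx2, Tiparp and Ovol1 were higher than at 3 µg/kg, with log2 differences of 2.89 ± 0.47 (SE, adjusted p = 1.24e-04), 1.08 ± 0.17 (SE, adjusted p = 5.9e-05) and 1.86 ± 0.25 (SE, adjusted p = 9.93e-06). Gpnmb and Mmp13 were higher at 30 than at 10 µg/kg, with log2 differences of 2.56 ± 0.41 (SE, adjusted p = 2.54e-04) and 1.80 ± 0.35 (SE, adjusted p = 0.00304).

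Other genes with a large change against vehicle did not pass in either step. Cyp1a1 had 5851 ± 469, 6654 ± 874 and 7627 ± 1186 CPM at 3, 10 and 30 µg/kg, with log2 differences of 0.19 ± 0.56 (SE, adjusted p = 0.963) and 0.20 ± 0.56 (SE, adjusted p = 0.991). Cyp1a2 had differences of 0.26 ± 0.13 (SE, adjusted p = 0.532) and 0.25 ± 0.13 (SE, adjusted p = 0.706). Sult5a1 had 229 ± 36.1 CPM at 3 µg/kg and 229 ± 34.7 CPM at 10 µg/kg, a difference of 0.00 ± 0.28 (SE, adjusted p = 1). Adam11 had 0.622 ± 0.286, 0.58 ± 0.246 and 0.502 ± 0.117 CPM, with -0.19 ± 0.39 (SE, adjusted p = 0.936) and -0.15 ± 0.42 (SE, adjusted p = 0.989). No MHC class II gene and no gene of lipogenesis or cholesterol synthesis was called between 10 and 3 µg/kg or between 30 and 10 µg/kg, and a p that misses the threshold does not show that the doses gave the same level.

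**Figure D5:**
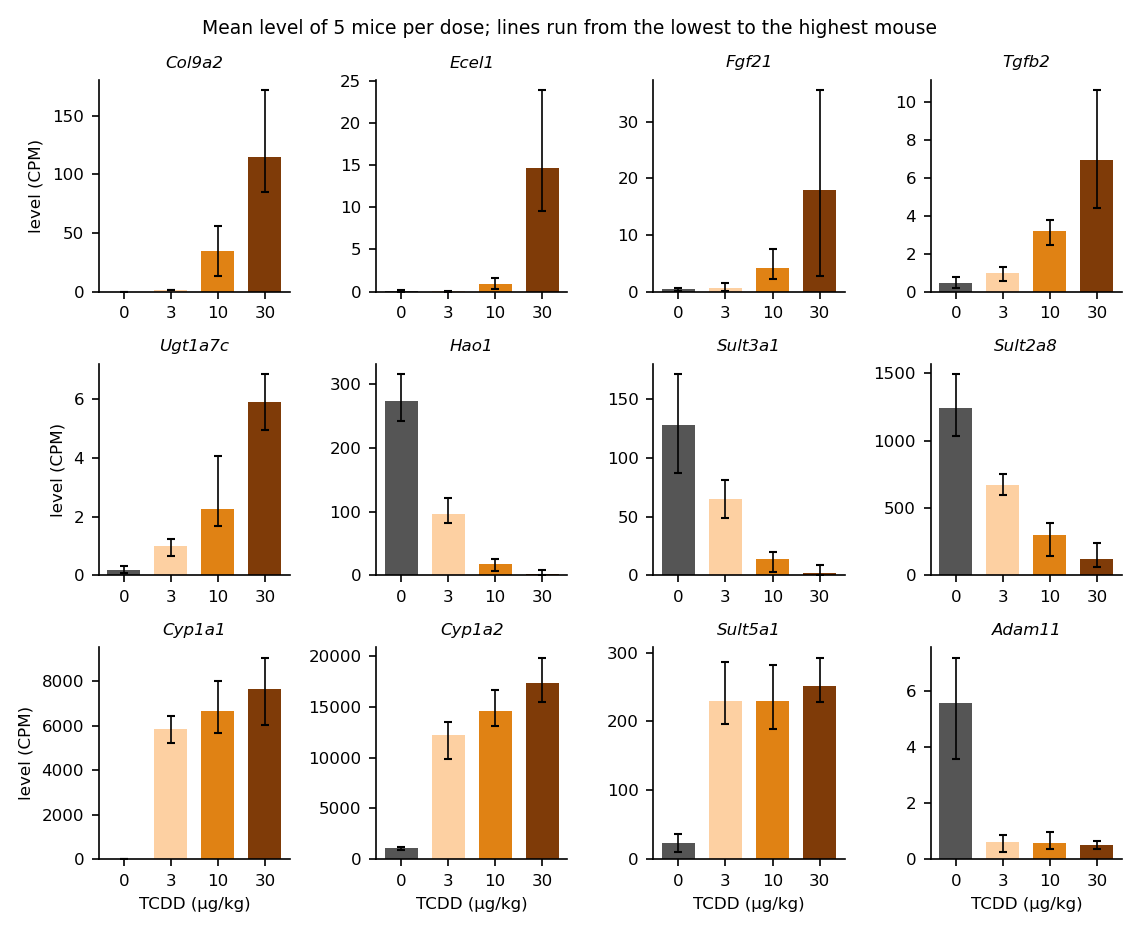
Mean level of 12 genes in CPM at 0 (vehicle), 3, 10 and 30 µg/kg TCDD, 5 mice each, with lines from the lowest to the highest mouse. The upper 8 genes were called both for 10 against 3 µg/kg and for 30 against 10 µg/kg, and Cyp1a1, Cyp1a2, Sult5a1 and Adam11 in neither step.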

How the data were processed

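Hepatic mRNA of 45 mice was sequenced, 1 library per mouse, and the 5 vehicle and 5 10 µg/kg mice were compared here. Per the study's methods and the submitters' processing notes, the authors trimmed the reads, checked them with FastQC 0.11.2, aligned them with TopHat 1.4.1 to GRCm38, sorted them with SAMtools 0.1.19 and counted them per Ensembl gene with HTSeq 0.6.1. The deposited values are raw read counts of 39179 genes, without normalization. Reads that align to several places were left out of the gene counts, so near-identical paralogs are undercounted, and the strand setting of the counting is not given in the sources used here. Of the uniquely aligned reads of the 10 libraries, 12.45% to 14.13% fell on no gene or on several genes and were not used.

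Symbols and positions were taken from GENCODE annotation of GRCm38, which matched 37693 gene identifiers. Genes with more than 4 reads in any sample, 17464 in all, were tested with edgeR 4.0.16 (R 4.3.3): TMM scaling, 1 coefficient per dose group over all 45 samples, so that the groups share 1 estimate of the spread, and the quasi-likelihood test with Benjamini-Hochberg adjustment. SE is the log2 fold change divided by the square root of the F statistic. Tested on counts simulated for this comparison, with 17043 genes in the step, the method called 45 of 50 genes changed 2.5-fold and 2 of 50 changed 1.5-fold. The changed genes were drawn from those with a mean of at least 10 reads, so these counts do not describe scarcer genes. A 1.5-fold change lies below the 2-fold criterion, so the count of 2 mainly reflects that criterion.

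The comparison, its 42 functional and 13 marker lists (1087 symbols, of which 7 were not matched) and the rule for named genes were chosen with earlier results of these data known. The rule takes the 15 largest changes each way without overlap between groups and with a mean of at least 10 reads, up to 3 DEGs each way per list by the same minimum, the 2 most abundant members of lists with under 2 DEGs, and all AhR battery genes. Not all of them are printed, and some genes are not reported here. Genes named beside them were chosen after their values were seen, among them Scd1, Srebf1, Cyp7a1, Hmox1, Gclc, Igf1, H2-Aa, Col3a1, Ccr1, Sult2a8 and Ecel1. A list is described by counts and its median, with no test of the list. Alternatives were DESeq2 1.42.0, its size factors, no TMM, other filters, a fit of both groups alone and leaving out each mouse. A gene at 0 reads in all vehicle mice has a lower bound of its fold, against 3 reads over the group.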

Additional observations from a re-analysis of the deposited data

Results flagged for a closer look

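Each value below is 1 mouse that stood apart from the other 4 of its group by Dixon's criterion at 95%, in CPM unless stated. It was met in 16 of 332 groups examined, and chance alone gives about 1 in 20 of them.

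Among the 10 µg/kg mice, replicate 1 had 392 CPM of Ugp2, a UDP-glucose pyrophosphorylase, below 484 to 521 in the others. Replicate 2 was low for the macrophage gene Gpnmb, with 1.26 against 2.98 to 4.07 CPM, and for the MHC class II activator Ciita, with 1.53 against 2.13 to 2.40 CPM, and high for Fabp4, with 14.7 against 11.8 to 12.5 CPM. In replicate 3 the 10 most abundant genes held 20.49% of the reads, against 21.8% to 22.09% in the other mice. Replicate 4 had 696 CPM of the chaperone Hspa5, above 574 to 605. Replicate 5 had 3.16 CPM of Sult3a1, against 13 to 20.0, then 4.07 CPM of Ugt1a7c, against 1.69 to 1.90, and 77.4 CPM of the interferon-stimulated gene Bst2, against 89.1 to 93.2. Each treated mouse with an extreme value of Gpnmb, Ciita, Sult3a1 or Ugt1a7c lay on the same side of every vehicle mouse as the other treated mice.

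Among the vehicle mice, replicate 3 had 153 CPM of Ugdh, below 197 to 218. Replicate 4 had 1185 CPM of the ATP synthase subunit Atp5a1, above 1020.3 to 1063, then 3.28 CPM of Krt23, below 3.64 to 3.70, no read (0 CPM) of the B cell marker Ms4a1, where the others had 0.308 to 0.509, and 0.0619 CPM of the muscle actin Acta1, which had 0 in the others. Replicate 5 had 220.5 CPM of Aox3, below 313 to 360, and 0.0505 CPM of Ovol1, which had 0 in the others. The values of Acta1 and Ovol1 are single reads.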

How the results depend on the processing

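The counts of increased and decreased DEGs at 10 µg/kg against vehicle stayed within 1.5 times of 666 and 303 under every alternative. They were 647 and 311 with DESeq2's Wald test, 657 and 306 with DESeq2 size factors, 599 and 289 without a filter on low counts, 606 and 262 with edgeR's filterByExpr, 899 and 228 without TMM and 729 and 330 when both groups alone were fitted. Leaving out 1 mouse gave 529 to 660 increased and 251 to 338 decreased DEGs. Of the 121 called genes that the rule for named genes took, 98 were called in every alternative run for them and 23 lost the call in at least 1. None of the 121 changed direction. Called genes printed beside them are outside these counts, and Acaca, Fads1, Sult1a1, Plk1, Hk3 and Slc51b among them also lost the call in at least 1 fit. Decreased genes at 10 against 3 µg/kg numbered 18, and 10 to 22 when 1 mouse was left out. Decreased genes at 30 against 10 µg/kg numbered 13, 3 when the mice of both doses alone were fitted, and 8 to 26 when 1 mouse was left out; the cause was not tested. No paired analysis was possible because the labels give no replicate numbers shared between groups. Depth limits the genes with few reads: 49.1% of the increased DEGs had a mean under 10 reads in the vehicle mice, and their fold changes are the least precise.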
